A study of Mus musculus with 24 samples.

Results

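The genes described here encode calcium-activated potassium channels and their auxiliary subunits: Kcnma1, Kcnmb2, Kcnmb4, Lrrc38, Lrrc55, Kcnn1, Kcnn2 and Kcnn3. They were listed by name, as pores and auxiliary subunits of the BK and SK channels, with earlier results of these data known. They are 8 of the 36528 genes listed in each library. Other genes of these families, Kcnmb1, Kcnmb3, Lrrc26, Lrrc52 and Kcnn4, are not among the 8 and are described further on. All 8 passed the filter on low counts and were tested.

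BK channels open when the membrane is depolarised and intracellular calcium rises, and they help to repolarise the action potential and to shape the fast afterhyperpolarisation. Kcnma1 encodes the only BK pore. Kcnmb2 and Kcnmb4 encode beta subunits that change its inactivation, kinetics and toxin sensitivity, while Lrrc38 and Lrrc55 encode leucine-rich-repeat gamma subunits that shift its activation to more negative voltages. SK channels, whose pores are encoded by Kcnn1, Kcnn2 and Kcnn3, do not sense voltage; they open when calcium binds to the calmodulin attached to them, and in cortical neurons they contribute to the medium afterhyperpolarisation.

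The study measured bulk RNA of live neurons collected by fluorescence-activated sorting of adult mouse cortical tissue. Its labels name 4 subtypes, EXC, SST, PV and VIP, and each has 6 libraries. Papain was used for dissociation, and DAPI-negative cells carrying GFP or tdTomato were kept. The reporter lines, their driver promoters, their strains and the number of animals behind a library are not given in the labels, no treatment is named for any group, and p-values therefore measure only the spread between these samples. The EXC and SST sorts each had 4 libraries from males and 2 from females, the VIP sort had 2 and 4, and the PV sort had 3 of each. Total counts ran from 1548907 to 15978459 per library with a median of 6012252, and were lowest in PV, where mitochondrially encoded genes took 14.4% to 52.9% of the reads against at most 16.6% elsewhere. Each sort had the highest level of its own marker gene: Pvalb stood at 201 ± 21.4 CPM in PV, Sst at 1158 ± 261 in SST, Vip at 1727 ± 51.4 in VIP and Slc17a7, the vesicular glutamate transporter of cortical excitatory neurons, at 532 ± 214 in EXC (SD, n = 6). Markers of other cells were present as well. The summed level of 8 oligodendrocyte genes ran from 80.2 to 2978 CPM in EXC and from 54.0 to 736 elsewhere, that of 8 genes of motile ciliated cells from 57.2 to 232 in PV and up to 5.45 elsewhere, and that of 8 genes of striatal neurons from 568 to 2172 in SST and from 133 to 776 elsewhere. The summed level of 8 genes of dentate granule cells was 1348 to 1824 CPM in EXC, 1202 to 1294 in VIP, where Prox1 alone averaged 1125, and at most 149.6 in PV and SST. The part of these other cells in the results below was not tested, except that EXC replicates 2 and 6, which had the highest oligodendrocyte sums, were left out as an alternative. The labels give a pool for each library. POOL6188 held every PV library and all of EXC except replicate 3. POOL7099 held that EXC replicate 3 with VIP replicates 2, 4, 5 and 6. POOL7098 held VIP replicates 1 and 3 with all of SST except replicate 5, which was alone in POOL7100. PV therefore shared no pool with SST or VIP, and SST shared none with EXC. In bulk samples, fewer cells that express a gene and less of its RNA per cell cannot be told apart.

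Levels below are normalised CPM, that is reads scaled to the same library size, and differences are log2 fold changes ± SE with Benjamini-Hochberg adjusted p from edgeR's quasi-likelihood test over 14890 genes. CPM values are compared between subtypes for 1 gene, and levels of different genes are compared only per length.

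Kcnma1, the BK pore gene (NCBI Gene 16531, GRCm38 chromosome 14, 23292288 to 24005110, minus strand), was abundant in every library and was lowest in VIP. It lay between 609.6 and 949.9 CPM in EXC with a median of 715, between 546 and 895 in PV with a median of 636, and between 449.8 and 789 in SST with a median of 601. In VIP it lay between 189 and 364 CPM with a median of 300.2. The EXC, PV and SST libraries overlapped one another widely, and every VIP library lay below all the others. The VIP mean of 287 ± 66.0 CPM was 2.59-fold lower than the EXC mean of 739 ± 120.0 (log2 fold change -1.37 ± 0.17, adjusted p = 3.92e-07). Against VIP, the log2 fold change was 1.23 ± 0.17 for PV (adjusted p = 1.87e-06) and 1.07 ± 0.17 for SST (adjusted p = 2.81e-05). The neighbours in the order EXC, PV and SST did not differ beyond their spread, with adjusted p of 0.524 for EXC and PV and 0.515 for PV and SST.

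**Figure D1:**
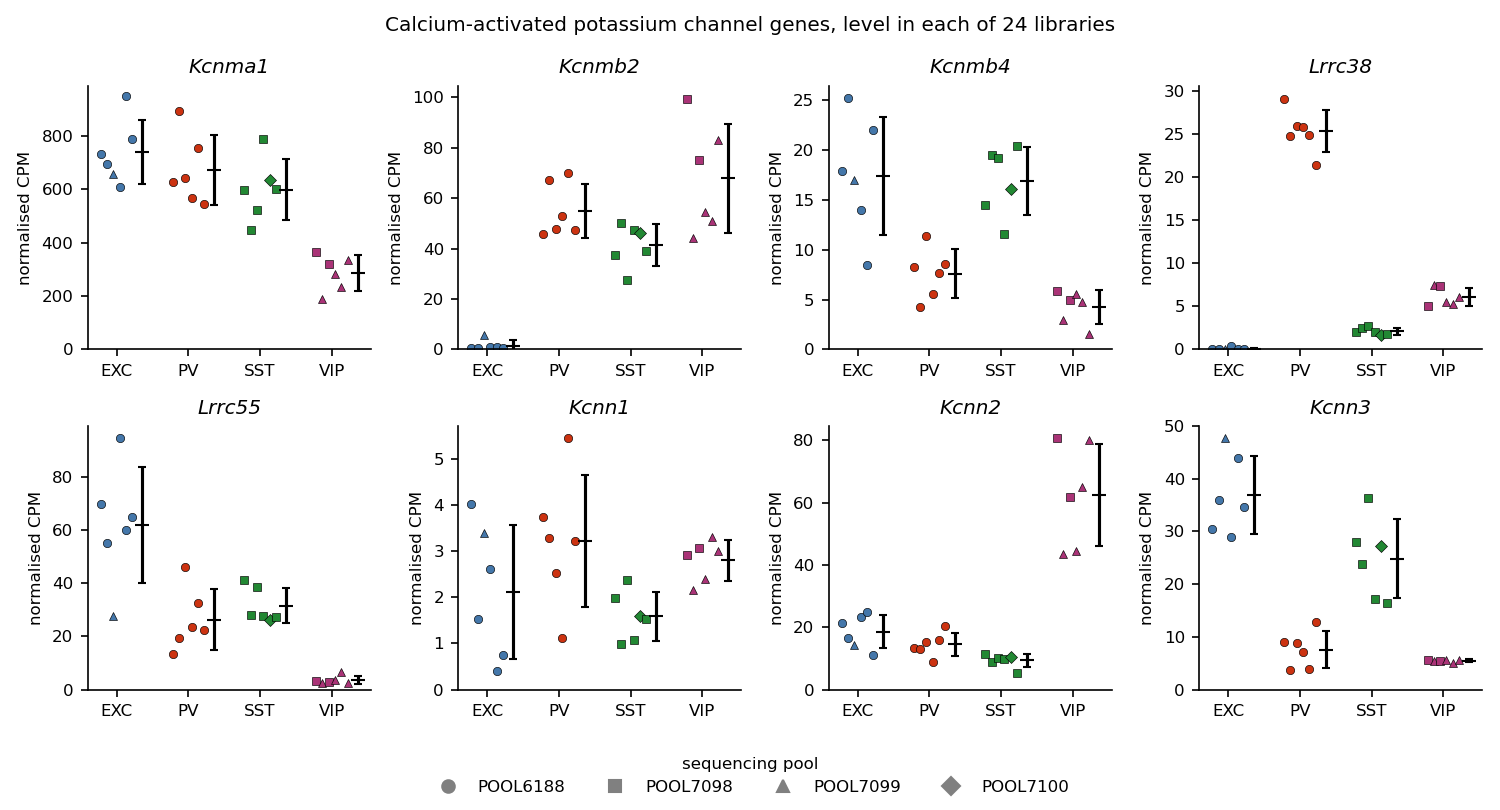
Level of each of the 8 channel genes in each of 24 libraries, in normalised CPM on linear axes that start at 0, by subtype. Marker shape gives the pool named in the labels, and the black bar beside each group is its mean ± SD (n = 6). Kcnma1 is lowest and Kcnn2 highest in the VIP libraries, Lrrc38 is highest in PV, and Kcnmb2 and Lrrc38 lie near 0 in EXC.

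The beta subunit genes had unlike patterns. Kcnmb2, whose protein carries an amino-terminal inactivation ball (72413, chromosome 3, 31901861 to 32200180, plus strand), was present in the 3 sorts of GABA neurons and close to absent in EXC. Its lowest, median and highest levels were 44.1, 64.7 and 99.4 CPM in VIP, 45.6, 50.4 and 69.9 in PV, and 27.6, 42.6 and 50.1 in SST. In EXC they were 0.504, 0.734 and 5.71 CPM, from 54 reads in all 6 libraries together. The highest EXC value, that of replicate 3 with 27 reads, was still below the lowest value of any other subtype. Against EXC, the log2 fold change was 5.70 ± 0.42 in VIP (adjusted p = 2.16e-11), 5.38 ± 0.42 in PV (adjusted p = 5.26e-11) and 4.93 ± 0.41 in SST (adjusted p = 3.23e-10). Without EXC replicate 3 these differences were 6.62, 6.30 and 5.88, each moved by more than 1.5 times as a fold. That library had the highest summed level of 8 pan-GABAergic genes among the EXC libraries, 889 CPM against 352 to 699 in the others, and the part of this in its Kcnmb2 level was not tested. Among the GABA sorts no pair passed the test, and the difference nearest to it was SST against VIP at -0.77 ± 0.32 (adjusted p = 0.0663). Within POOL7098, which holds 5 SST and 2 VIP libraries, the same difference was -1.02 with an adjusted p of 0.00276. Without EXC replicate 3 it was -0.74 with an adjusted p of 0.00443, and in DESeq2 it was -0.88 with an adjusted p of 0.0352. PV against SST was 0.45 ± 0.32 (adjusted p = 0.322). It passed in the edgeR fit on the libraries of that pair alone (0.43, adjusted p = 0.0342).

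Kcnmb4, the beta subunit gene best known from brain (58802, chromosome 10, 116417861 to 116473859, minus strand), was highest in EXC and SST. Its lowest, median and highest levels were 8.46, 17.4 and 25.2 CPM in EXC and 11.6, 17.6 and 20.4 in SST. They were 4.22, 7.93 and 11.3 CPM in PV and 1.56, 4.86 and 5.83 in VIP. EXC and SST overlapped fully, PV overlapped EXC and VIP, and the VIP libraries all lay below EXC and SST. Kcnmb4 was 4.16-fold lower in VIP than in EXC (-2.06 ± 0.30, adjusted p = 4.09e-06) and 2.34-fold lower in PV than in EXC (-1.23 ± 0.31, adjusted p = 0.00213). SST exceeded VIP by 2.02 ± 0.31 (adjusted p = 1.19e-05), and PV was below SST by a log2 fold change of -1.19 ± 0.31 (adjusted p = 0.00509). EXC and SST differed by less than their spread (-0.03 ± 0.28 for SST against EXC, adjusted p = 0.936). PV stood above VIP by 0.83 ± 0.32 (adjusted p = 0.0350), but the test was no longer passed without PV replicate 1, 3 or 5 or without VIP replicate 2 or 6, with adjusted p from 0.0539 to 0.105, or with DESeq2 size factors (adjusted p = 0.0505).

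Of the gamma subunit genes, Lrrc38 separated all 4 subtypes and Lrrc55 set VIP apart. Lrrc38 (242735, chromosome 4, 143347076 to 143371032, plus strand) was highest in PV, where its SD was smallest relative to its mean, at 9.76%. Its lowest, median and highest levels were 21.5, 25.4 and 29.1 CPM in PV, 5.05, 5.82 and 7.44 in VIP, and 1.73, 1.99 and 2.67 in SST. In EXC it had 3 reads in all, and they fell in replicate 4 (0.391 CPM), while the other 5 EXC libraries had 0. No library of 1 subtype overlapped with those of another, so that the order PV, VIP, SST and EXC held library by library. The ratio of summed normalised reads of PV to EXC was 365 with a 95% counting interval of 124 to 1776, that of VIP to EXC was 88.2 with an interval of 29.8 to 430.5, and that of SST to EXC was 28.9 with an interval of 9.69 to 141. These intervals cover counting error only, and the adjusted p of the 3 comparisons were 3.23e-13, 1.04e-10 and 4.73e-08. The fitted log2 fold changes of PV, VIP and SST against EXC were 8.21, 6.18 and 4.60 with EXC replicate 4 and 10.52, 8.50 and 6.94 without it, when EXC has 0 reads. A fold against 0 reads depends on the settings of the fit and is no bound. Among the GABA sorts, PV exceeded SST 12.2-fold (log2 fold change 3.61 ± 0.33, adjusted p = 4.51e-09) and VIP 4.08-fold (2.03 ± 0.32, adjusted p = 1.00e-05), and SST was below VIP (-1.58 ± 0.33, adjusted p = 0.000594).

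Lrrc55 (241528, chromosome 2, 85188067 to 85198750, minus strand) ran the other way and was lowest in VIP. Its lowest, median and highest levels were 27.5, 62.4 and 94.4 CPM in EXC, 26.1, 27.8 and 41.0 in SST, 13.5, 23.1 and 46.1 in PV, and 2.35, 2.98 and 6.44 in VIP. All VIP libraries lay below all the others, while EXC, SST and PV overlapped. Lrrc55 was 17.9-fold lower in VIP than in EXC (-4.16 ± 0.32, adjusted p = 4.57e-11). It was higher than in VIP by 3.18 ± 0.31 in SST (adjusted p = 9.93e-09) and by 2.95 ± 0.31 in PV (adjusted p = 2.49e-08). Both PV (-1.21 ± 0.29, adjusted p = 0.00110) and SST (-0.98 ± 0.27, adjusted p = 0.00505) were below EXC, and PV and SST did not pass the test against each other (-0.23 ± 0.29, adjusted p = 0.604). The lowest EXC library was replicate 3, the only one outside POOL6188, which also had the lowest summed level of excitatory neuron genes in EXC, 2287 CPM against 4394 to 6159. The part of either in its Lrrc55 level was not tested.

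The promoter windows of the auxiliary genes called between EXC and each GABA sort are printed to show the sequence at an annotated transcript start. These are Kcnmb2 and Lrrc38, which had few or no reads in EXC, and Lrrc55. Lrrc55 had its highest mean in EXC, but its EXC libraries overlapped those of PV and SST. Each window is from RefSeq on GRCm38.p6 and covers 250 bases before to 50 bases after the transcript start in that table, which for Kcnmb2 and Lrrc38 lies downstream of the gene start given above, so that their windows do not hold that gene start. Kcnmb2 lies at chr3:31902453-31902752 on the plus strand, Lrrc38 at chr4:143349500-143349799 on the plus strand and Lrrc55 at chr2:85198701-85199000 on the minus strand. Capitals mark matches to the E-box CANNTG; the homeodomain core TAATTA and the GC box GGGCGG were searched too, all on both strands, and had no match in these 3 windows.
Kcnmb2: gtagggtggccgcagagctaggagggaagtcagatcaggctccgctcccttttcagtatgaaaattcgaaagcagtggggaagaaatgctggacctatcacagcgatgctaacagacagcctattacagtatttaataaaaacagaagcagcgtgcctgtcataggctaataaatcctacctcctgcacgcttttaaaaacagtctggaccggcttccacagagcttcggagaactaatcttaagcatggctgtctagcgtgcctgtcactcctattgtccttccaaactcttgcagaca
Lrrc38: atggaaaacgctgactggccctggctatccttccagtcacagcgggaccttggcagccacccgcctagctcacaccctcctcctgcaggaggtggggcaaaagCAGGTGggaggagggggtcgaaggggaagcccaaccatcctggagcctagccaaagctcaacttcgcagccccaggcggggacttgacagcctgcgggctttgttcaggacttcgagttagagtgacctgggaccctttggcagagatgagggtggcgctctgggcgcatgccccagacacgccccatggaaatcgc
Lrrc55: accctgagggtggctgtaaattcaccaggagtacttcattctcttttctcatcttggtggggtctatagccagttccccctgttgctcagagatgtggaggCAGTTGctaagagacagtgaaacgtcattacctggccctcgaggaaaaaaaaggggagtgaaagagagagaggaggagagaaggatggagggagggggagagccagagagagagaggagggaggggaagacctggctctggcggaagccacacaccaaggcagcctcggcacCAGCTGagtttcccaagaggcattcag
Kcnmb2 held no E-box, Lrrc38 held 1 and Lrrc55 held 2. Of 32851 windows of the same length, 72.3% held at least 1 E-box, 5.29% the homeodomain core and 35.7% the GC box, so these matches were common letters and describe the windows only. GC content was 47.7% for Kcnmb2, 62.7% for Lrrc38 and 54.7% for Lrrc55, beside a median of 52.7% over all windows. Windows were matched for 7 of the 8 genes.

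Of the SK pore genes, Kcnn2 separated VIP from the rest. This gene, much studied in cortical and hippocampal neurons (140492, chromosome 18, 45268750 to 45685887, plus strand), was highest in VIP. Its lowest, median and highest levels were 43.5, 63.3 and 80.8 CPM in VIP, 11.2, 18.9 and 24.7 in EXC, 8.88, 14.3 and 20.4 in PV, and 5.23, 9.97 and 11.5 in SST. Every VIP library lay above every other library, and the other subtypes overlapped one another. VIP exceeded EXC 3.41-fold (1.77 ± 0.23, adjusted p = 7.83e-07), PV 4.40-fold (log2 fold change of PV against VIP -2.14 ± 0.25, adjusted p = 9.22e-08) and SST 6.83-fold (SST against VIP -2.77 ± 0.24, adjusted p = 1.32e-09). SST was also below EXC (-1.01 ± 0.23, adjusted p = 0.00107). PV did not pass the test against EXC (-0.37 ± 0.25, adjusted p = 0.227) or against SST (0.64 ± 0.25, adjusted p = 0.0613), although the latter passed in DESeq2 with an adjusted p of 0.0421. Among the VIP libraries, replicates 1, 3 and 6, in which mitochondrially encoded genes took 1.80% to 5.83% of the reads, had Kcnn2 between 61.7 and 80.8 CPM, and replicates 2, 4 and 5, with 14.2% to 16.6%, had it between 43.5 and 64.9. Kcnma1 lay between 319 and 364 CPM in the first 3 and between 189 and 282 in the others. Replicates 2, 4 and 5 also had higher summed levels of excitatory neuron genes (572 to 922 CPM against 332 to 338), of oligodendrocyte genes (278 to 736 against 54.0 to 117) and of SST interneuron genes (357 to 439 against 258 to 298). Their summed VIP interneuron genes were higher too, at 2545 to 2750 CPM against 2165 to 2345. The sums of PV interneuron genes overlapped, at 14.5 to 33.9 CPM against 14.8 to 20.4. Replicates 1 and 3 were in POOL7098, and replicate 6 was in POOL7099 with replicates 2, 4 and 5. The part of any of these in the Kcnn2 and Kcnma1 levels was not tested.

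Kcnn3, the SK pore gene also known from dopamine neurons (140493, chromosome 3, 89520164 to 89672494, plus strand), was high in EXC and SST and low in PV and VIP. Its lowest, median and highest levels were 28.9, 35.2 and 47.8 CPM in EXC, 16.5, 25.5 and 36.4 in SST, 3.75, 7.92 and 12.9 in PV, and 4.97, 5.56 and 5.66 in VIP. The EXC and SST libraries all lay above the PV and VIP libraries, and the VIP values were the tightest of the 8 genes in any subtype, with an SD of 4.76% of the mean. Kcnn3 was 6.35-fold lower in VIP than in EXC (-2.67 ± 0.25, adjusted p = 2.11e-09) and 5.05-fold lower in PV than in EXC (-2.34 ± 0.26, adjusted p = 4.00e-08). SST exceeded VIP by 2.08 ± 0.25 (adjusted p = 3.65e-07), and PV was below SST (-1.75 ± 0.26, adjusted p = 9.81e-06). PV and VIP did not pass the test against each other (0.33 ± 0.27, adjusted p = 0.315). Within SST, Kcnn3 was 36.4 CPM in replicate 3 and 28.0 in replicate 1, whose summed striatal neuron levels were 2172 and 1934 CPM, and 17.2 in replicate 4 and 16.5 in replicate 6, whose sums were 568 and 612. Replicates 2 and 5, with sums of 1174 and 1046 CPM, had Kcnn3 at 23.8 and 27.2, and the part of striatal neurons in Kcnn3 was not tested. Replicates 4 and 6 were also the 2 SST libraries from females. Kcnn3 in SST was 16.5 to 17.2 CPM in females and 23.8 to 36.4 in males. Sex and a low striatal sum cannot be told apart in those 2 libraries. The difference of SST from EXC, -0.59 ± 0.22, had an adjusted p of 0.0395 with overlapping libraries, and it was no longer called in 14 of the 24 fits that left out 1 library, with adjusted p up to 0.131.

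Kcnn1 (84036, chromosome 8, 70843158 to 70865691, minus strand) was the weakest SK gene, with a mean of 1.59 ± 0.532 CPM in SST, 2.11 ± 1.46 in EXC, 2.80 ± 0.440 in VIP and 3.22 ± 1.43 in PV. These means rest on 49 reads in PV, 91 in EXC, 111 in VIP and 119 in SST over the 6 libraries of each. The libraries of all 4 subtypes overlapped, and none of the 6 pairs passed the test. The pair nearest to it was PV against SST, at 0.99 ± 0.49 (adjusted p = 0.141), which passed in the fit on the libraries of that pair alone (1.07, adjusted p = 0.0375), as did SST against VIP (-0.94, adjusted p = 0.0227). With so few reads, smaller differences were not detectable at this depth.

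The antisense or overlapping genes annotated on the opposite strand share exon bases with Kcnma1, Kcnmb4, Lrrc55, Kcnn1 and Kcnn2, from 132 bases for Kcnn1 to 1016 for Kcnma1. No source used here gives the strand setting of the counting, so reads of these partners cannot be told apart from those of the channel genes there. Kcnmb2, Lrrc38 and Kcnn3 had no such partner.

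Many genes differed between these sorts, so the number of channel genes called is set beside the share of all genes called. For VIP against EXC, 7 of the 8 were called, beside 39.1% of all genes tested; 3 were higher, beside 18.4%, and 4 lower, beside 20.7%. Those were Kcnmb2, Lrrc38 and Kcnn2 in the first case and Kcnma1, Kcnmb4, Lrrc55 and Kcnn3 in the second, and the libraries of all 7 did not overlap, beside 17.4% of all genes. For SST against VIP, 6 were called, beside 31.3%; 4 were higher in SST, beside 14.6%, and 2 lower, beside 16.7%, and 6 did not overlap, beside 21%. For PV against VIP, 5 were called, beside 48.6%; 4 were higher in PV, beside 21.9%, and 1 lower, beside 26.7%, with 4 not overlapping beside 27.7%. For PV against EXC, 5 were called, beside 45.9%, of which 2 were higher, beside 20.3%, and 3 lower, beside 25.6%, with 3 not overlapping beside 23.2%. For SST against EXC, 5 were called, beside 38.4%, of which 2 were higher, beside 17.1%, and 3 lower, beside 21.3%, with 2 not overlapping beside 18.3%. For PV against SST, 3 were called, beside 26.3%, of which 1 was higher in PV, beside 11.4%, and 2 lower, beside 14.9%, with 3 not overlapping beside 20.8%. With 8 genes these shares are coarse, and the counts called for PV against EXC, PV against VIP and PV against SST lay near the shares over all genes. The 8 genes were chosen with earlier results of these data known, so these counts describe them and carry no test. The 6 comparisons share groups and are not independent of one another. The median log2 fold change of the 8 genes lay between -0.50 for VIP against EXC and 0.58 for PV against VIP, where the medians of all genes were 0.01 and -0.09.

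**Figure D2:**
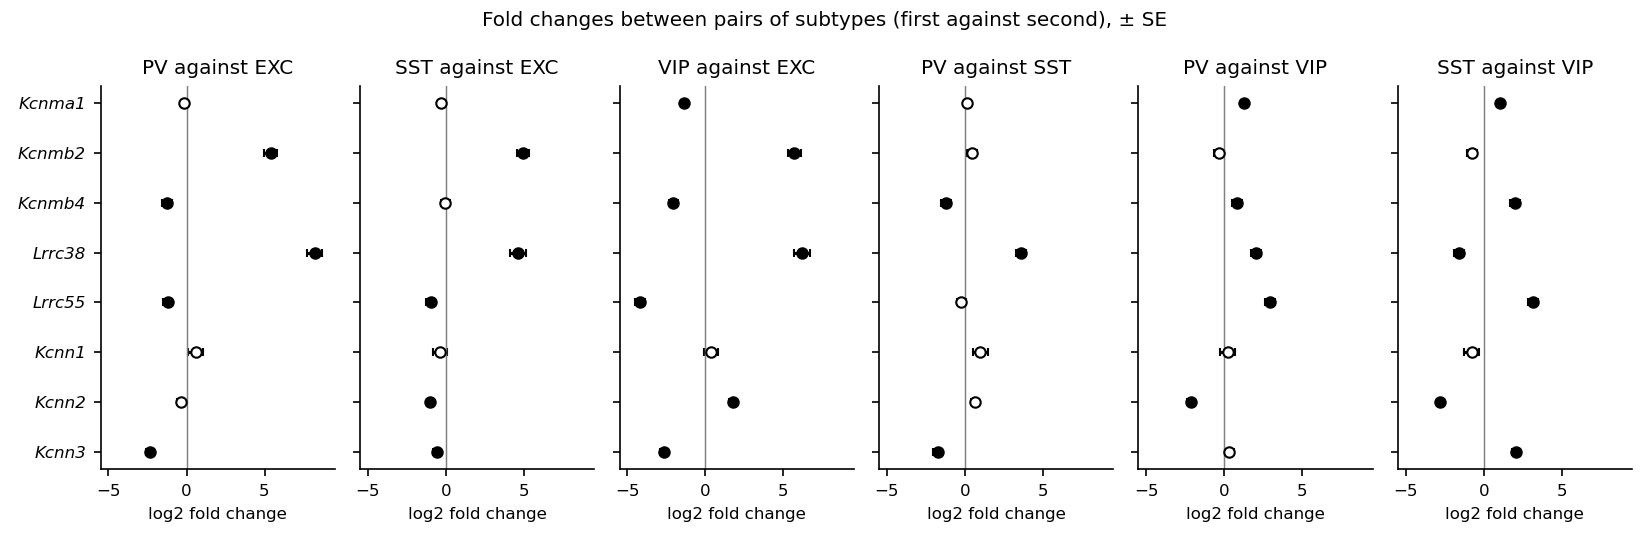
Log2 fold changes ± SE of the 8 channel genes in the 6 pairs of subtypes, from edgeR's quasi-likelihood fit to all 24 libraries; filled points had an adjusted p under 0.05. The positive end is set by Lrrc38 at 8.21 and the negative end by Lrrc55 at -4.16, both against EXC.

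Where a pool held both subtypes of a pair, every called difference of the channel genes for which a fold could be given kept its direction within that pool. Within POOL6188, PV against EXC gave 7.97 for Lrrc38, 6.27 for Kcnmb2, -2.29 for Kcnn3, -1.43 for Lrrc55 and -1.27 for Kcnmb4, all with adjusted p of at most 0.00297. Within POOL7098, SST against VIP gave 3.48 for Lrrc55, 2.08 for Kcnn3, 1.73 for Kcnmb4, 0.88 for Kcnma1, -1.46 for Lrrc38 and -2.93 for Kcnn2, all with adjusted p of at most 0.00697. Within POOL7099, where VIP has 4 libraries and EXC has 1 that is assumed to vary like the others, Kcnmb2 (3.22, adjusted p = 0.0100), Kcnn2 (2.24, adjusted p = 0.0454) and Kcnn3 (-3.19, adjusted p = 0.0143) passed the test. Kcnma1 (-1.43, adjusted p = 0.135), Kcnmb4 (-1.75, adjusted p = 0.268) and Lrrc55 (-2.02, adjusted p = 0.130) did not pass there. Lrrc38 had 0 reads in that EXC library, so no fold is given for it. The differences of Kcnmb2 and Lrrc55, 5.70 and -4.16 over all libraries, were thus smaller in this pool, whose EXC library is replicate 3. For PV against SST, PV against VIP and SST against EXC no pool gives a value, and pool and subtype cannot be told apart within one. A fit with the pool as a term reaches these pairs only through EXC replicate 3 and, for SST, VIP replicates 1 and 3. EXC replicate 3 has 0 reads of Lrrc38, so that fit carries no information on this gene between PV and SST or VIP. Among the calls lost in it were Kcnn3 in PV against SST (-1.39 against -1.75, adjusted p = 0.124), Kcnmb4 in PV against SST (-0.61 against -1.19) and Lrrc55 in PV against VIP (1.50 against 2.95, adjusted p = 0.0575). Kcnmb4 in PV against VIP was 1.07 against 0.83 (adjusted p = 0.283). For SST against EXC, Kcnn2 was -0.90 against -1.01 (adjusted p = 0.215), Kcnn3 was -0.90 against -0.59 (adjusted p = 0.225), and Lrrc55 turned from -0.98 to 0.60 (adjusted p = 0.511). Kcnmb2 was higher in PV than in SST in that fit (4.03, adjusted p = 3.09e-05) and turned to higher in PV than in VIP (2.92, adjusted p = 0.000254).

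Per length, the 4 subtypes carried different mixtures of the BK auxiliary transcripts Kcnmb2, Kcnmb4, Lrrc38 and Lrrc55. The values here are the deposited size-factor-adjusted RPKM, which divide by a gene length. The length of the transcripts expressed in these cells was not measured, so comparisons between genes rest on the gene lengths used in that column. The summed RPKM of Kcnmb2, Kcnmb4, Lrrc38 and Lrrc55 was 10.1 ± 1.90 in EXC, 10.3 ± 0.581 in SST, 11.4 ± 1.33 in PV and 7.82 ± 2.11 in VIP. VIP replicate 1 stood at 11.4, and the other 5 VIP libraries, at 5.43 to 8.48, lay below every PV library (at least 10.1) and every SST library (at least 9.42). The sums were not tested, and they leave out other BK auxiliary genes. Lrrc26, of the gamma subunit family, had a mean RPKM of 1.27 in VIP, 1.20 in PV, 1.19 in EXC and 1.00 in SST. In VIP this was above the means of Kcnmb4 (1.03), Lrrc38 (0.671) and Lrrc55 (0.333). Kcnmb1 had a mean RPKM of 1.59 in PV and at most 0.287 elsewhere. The shares below are shares of the 4-gene sum only. In EXC, Lrrc55 made up 57.1% ± 14.4 of that sum and Kcnmb4 41.2% ± 13.0, while Kcnmb2 reached 6.69% in replicate 3 with a median of 0.557%, and Lrrc38 at most 0.340%. In PV all 4 contributed, Kcnmb2 with 39.7% ± 7.19, Lrrc38 with 23.9% ± 4.11, Lrrc55 with 20.8% ± 6.45 and Kcnmb4 with 15.5% ± 4.51. In SST, Kcnmb4 made up 37.4% ± 5.95, Kcnmb2 32.4% ± 7.16 and Lrrc55 28.0% ± 5.81, with 2.13% ± 0.351 for Lrrc38. In VIP, Kcnmb2 alone made up 72.7% ± 7.77, and its share there, 64.6% to 84.6%, was above that of every library of the other subtypes, where it reached at most 50.3%.

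The pore genes differed in balance as well. Kcnn2 made up 93.6% ± 1.31 of the summed SK RPKM in VIP, 73.5% ± 3.35 in PV, 52.0% ± 9.25 in EXC and 45.3% ± 6.26 in SST, where Kcnn3 held most of the rest. The ratio of Kcnn2 to Kcnma1 RPKM was 1.11 ± 0.210 in VIP, with a range from 0.797 to 1.41. It depends on the gene lengths used: not divided by length, VIP averaged 62.6 CPM for Kcnn2 and 287 for Kcnma1. In the other 18 libraries it was at most 0.194. Kcnma1 thus exceeded the SK genes per length in every EXC, PV and SST library, while in VIP the summed SK RPKM was 0.867 to 1.50 times that of Kcnma1. The ratio of the auxiliary sum to Kcnma1 was 0.718 ± 0.0573 in VIP, 0.496 ± 0.126 in SST, 0.473 ± 0.0838 in PV and 0.379 ± 0.114 in EXC. These ratios describe the same levels as above and were not tested separately.

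**Figure D3:**
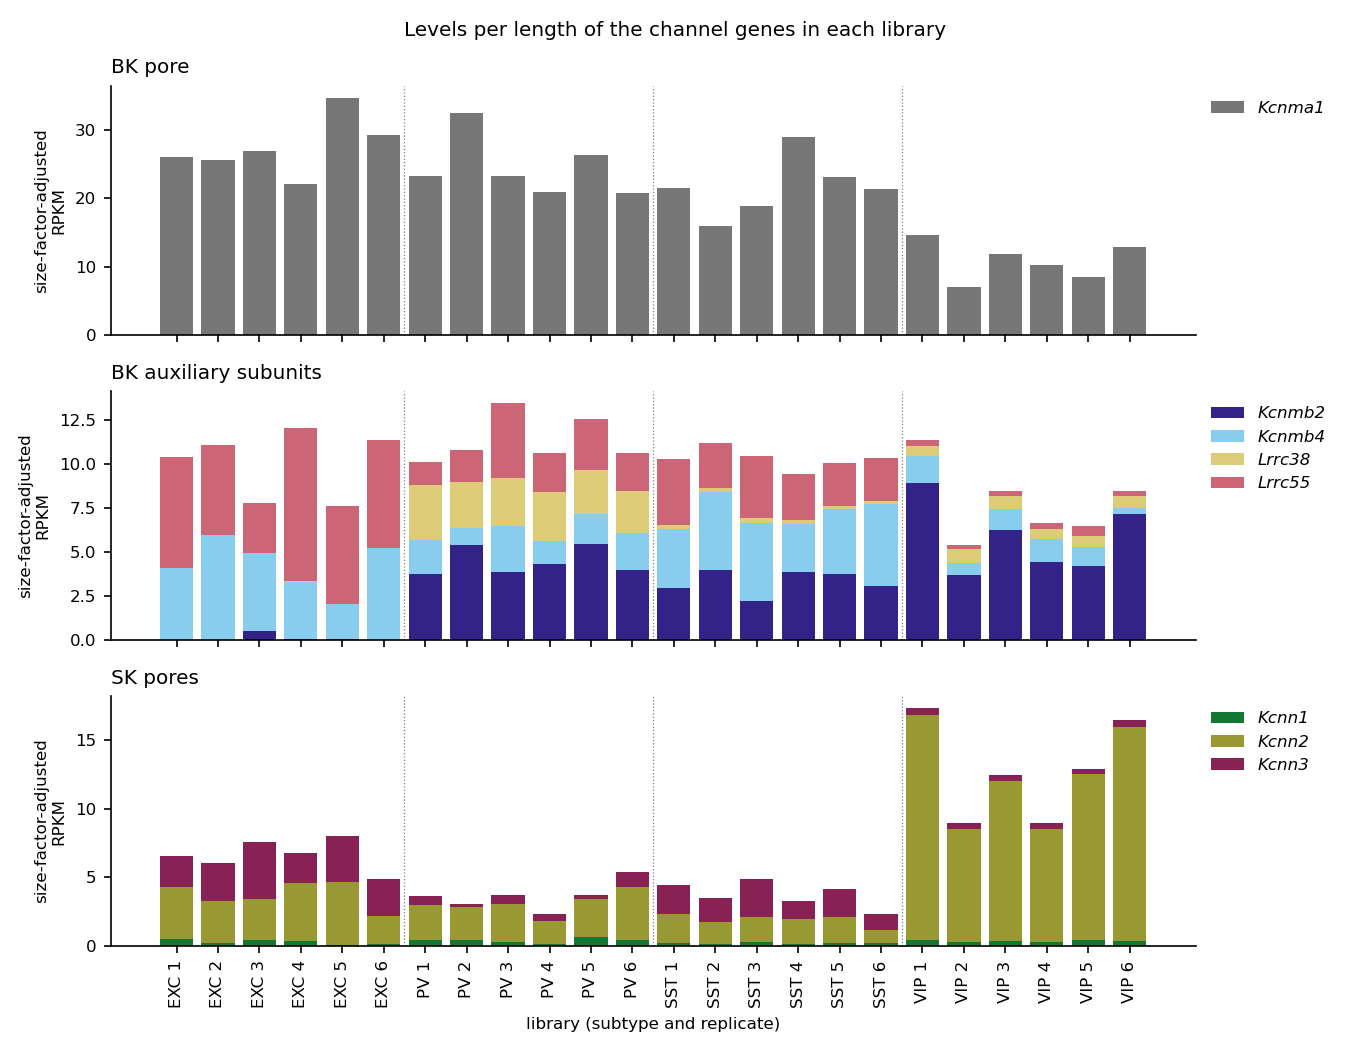
Deposited size-factor-adjusted RPKM in each of 24 libraries, 1 bar per library, on axes that start at 0. The BK pore gene Kcnma1 is at the top and the SK pore genes are stacked at the bottom. The BK auxiliary genes Kcnmb2, Kcnmb4, Lrrc38 and Lrrc55 are stacked in the middle. Lrrc38 is visible in PV, Kcnmb2 dominates the auxiliary bars in VIP, and the SK bars of VIP, mostly Kcnn2, are the tallest.

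Sex made no difference to these genes that the test could find. For female against male, with subtype as the other term, none of the 8 genes was called, beside 0.0403% of all genes tested (6 genes, with 0.0134% higher and 0.0269% lower in females, while 392 genes had an unadjusted p under 0.05). The log2 fold changes of the 8 lay between -0.21 for Kcnn3 and 0.15 for Kcnn1, and the lowest unadjusted p was 0.266. The terms for a sex difference that varies with subtype were called for 0 genes in edgeR (0% of those tested, with 319 at an unadjusted p under 0.05) and for 1 gene in DESeq2. The channel gene with the lowest unadjusted p for these terms was Lrrc55 at 0.0443. With 2 to 4 libraries of a sex in a subtype, small differences could not be detected.

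For each channel gene the 3 genes with the most similar pattern over the 24 libraries were sought among 9258 genes, by the root mean square difference of centred log2 CPM, where a smaller value is a closer match. Kcnma1 was closest to Pcdh9 (0.22), Slc1a1 (0.23) and Gabra4 (0.26), beside a median of 0.81 over all genes compared. Lrrc55 was closest to Gsg1l (0.31), St6galnac5 (0.46) and Slc30a3 (0.46), beside a median of 1.65. On average Gsg1l, which encodes an auxiliary protein of AMPA receptors, stood at 53.5 CPM in EXC, 32.0 in SST, 26.8 in PV and 4.12 in VIP, the order that Lrrc55 has. Kcnmb2 was closest to Rbms3 (0.49), Erbb4 (0.74) and Galntl6 (0.78), beside a median of 2.46, and Erbb4, the neuregulin receptor of interneurons, was also second for Lrrc38 (0.80) after Btn2a2 (0.79) and before Adm (0.86). Kcnmb4 was closest to Peak1 (0.55), Prickle2 (0.56) and Mctp1 (0.57), beside a median of 1.11. Kcnn2 was closest to Traf6 (0.47), Slitrk2 (0.48) and Sobp (0.51), beside a median of 1.25, and Kcnn3 to Garem1 (0.50), Csgalnact1 (0.51) and Map2k1 (0.51), beside a median of 1.33. For Kcnn1 the closest genes were Eps15l1 (0.50), Patl1 (0.50) and Lysmd4 (0.51), near the 0.72 that Kcnn1 itself varied by. These are descriptions over libraries that share subtype and pool, and carry no test.

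Relatives of these channels were described by a list of 9 genes, of which 6 were tested and Kcnmb3, Lrrc52 and Kcnn4 fell below the filter on low counts. Kcnmb1, the beta subunit gene of smooth muscle, was higher in PV than in SST (6.33 ± 1.03, adjusted p = 3.19e-05), than in VIP (5.88 ± 1.05, adjusted p = 5.77e-05) and than in EXC (2.53 ± 0.89, adjusted p = 0.0227). It lay between 5.16 and 23.5 CPM in PV and at most at 0.468 in SST and VIP, while in EXC the highest library stood at 9.21. The summed level of 8 smooth muscle and pericyte genes was 14.2 to 39.0 CPM in PV, 9.60 to 28.0 in VIP and 11.2 to 15.3 in SST. It was 157 in EXC replicate 6, the EXC library with the most Kcnmb1. That of 8 genes of motile ciliated cells was 57.2 to 232 CPM in PV and at most 5.45 elsewhere. The part of either cell type in Kcnmb1 was not tested. Kcnt2, a sodium-activated potassium channel of the same superfamily, was 669 ± 298 CPM in VIP, 140.3 ± 38.9 in EXC, 45.4 ± 17.6 in SST and 6.80 ± 3.40 in PV, with all 6 pairs called. Kcnt1, its paralog, was lowest in VIP at 10.4 CPM on average, against 21.0 in EXC, 31.9 in SST and 35.7 in PV. Lingo1, which encodes a membrane protein reported to bind BK channels, averaged 236 CPM in EXC, 63.6 in SST, 34.2 in VIP and 16.8 in PV. Of the 6 tested, 2 were higher and 2 lower in PV against EXC, 1 and 3 in SST against EXC, 1 and 3 in VIP against EXC, 1 and 2 in PV against SST, 2 and 2 in PV against VIP, and 2 and 1 in SST against VIP. Over all genes tested, 45.9%, 38.4%, 39.1%, 26.3%, 48.6% and 31.3% were called in these pairs in the same order. Kcnu1 and Lrrc26 were called in no pair, with average levels of at most 2.54 CPM in any subtype.

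The SK channel complex holds calmodulin, the calcium sensor, and the kinase CK2 and the phosphatase PP2A, which tune its calcium sensitivity. Of 9 genes for these proteins, all tested, 3 were higher and 3 lower in PV against EXC, 3 and 1 in SST against EXC, 1 and 3 in VIP against EXC, 2 and 3 in PV against SST, 5 and 1 in PV against VIP, and 3 and 0 in SST against VIP. In the same order, 20.3% and 25.6%, 17.1% and 21.3%, 18.4% and 20.7%, 11.4% and 14.9%, 21.9% and 26.7%, and 14.6% and 16.7% of all genes tested were higher and lower. The largest difference was that of the calmodulin gene Calm3, at 1.56 ± 0.23 for PV against VIP (adjusted p = 5.43e-06), with averages of 751 CPM in PV, 679 in EXC, 371 in SST and 263 in VIP. Ppp2cb, a PP2A catalytic subunit gene, was higher in SST than in EXC by 1.00 on the log2 scale. The median log2 fold change of the 9 lay between -0.17 for VIP against EXC and 0.42 for SST against VIP.

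Genes of calcium channel pores, calcium release channels and junctophilins were mostly lower in the GABA sorts than in EXC. Whether any of them supplies calcium to BK or SK channels in these cells was not tested. Of 17 genes of voltage-gated calcium channel pores, ryanodine and inositol trisphosphate receptors and junctophilins, 16 were tested and Itpr3 was not. In PV against EXC, 1 was higher and 12 were lower, with a median log2 fold change of -1.68 beside -0.12 over all genes tested. In SST against EXC 0 were higher and 11 lower, with a median of -1.30 beside -0.06, and in VIP against EXC 2 were higher and 11 lower, with a median of -1.21 beside 0.01. Over all genes, 25.6%, 21.3% and 20.7% were lower in these 3 comparisons, which share the EXC libraries. Among the GABA sorts, 3 were higher and 9 lower in PV against SST, 3 and 8 in PV against VIP, and 6 and 6 in SST against VIP. Over all genes, 11.4% were higher and 14.9% lower in the first of these, 21.9% and 26.7% in the second, and 14.6% and 16.7% in the third.

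Cacna1e, the R-type calcium channel pore gene, averaged 1644 CPM in EXC, 533 in SST, 298 in VIP and 64.7 in PV, a log2 fold change of -4.65 ± 0.16 for PV against EXC (adjusted p = 1.90e-17). The T-type pore gene Cacna1h averaged 105 CPM in EXC and 3.51 in PV, and the ryanodine receptor gene Ryr2 1108 in EXC against 154 to 240.0 in the others. Jph1, which encodes a junctophilin that holds the endoplasmic reticulum close to the plasma membrane, averaged 141 CPM in EXC, 15.4 in SST, 17.2 in VIP and 3.22 in PV. The P/Q-type pore gene Cacna1a was the 1 gene higher in PV than in EXC (0.78 ± 0.18, adjusted p = 0.000680), at 190.5 CPM on average against 113. The N-type pore gene Cacna1b was higher in VIP than in EXC (0.85 ± 0.14, adjusted p = 1.64e-05), as was the T-type pore gene Cacna1g (1.59 ± 0.26, adjusted p = 1.36e-05). Itpr1, an inositol trisphosphate receptor gene, was low in VIP at 24.3 CPM on average, against 251 in SST, 488 in PV and 592 in EXC, and PV and EXC did not pass the test (-0.25 ± 0.31, adjusted p = 0.534).

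**Figure D4:**
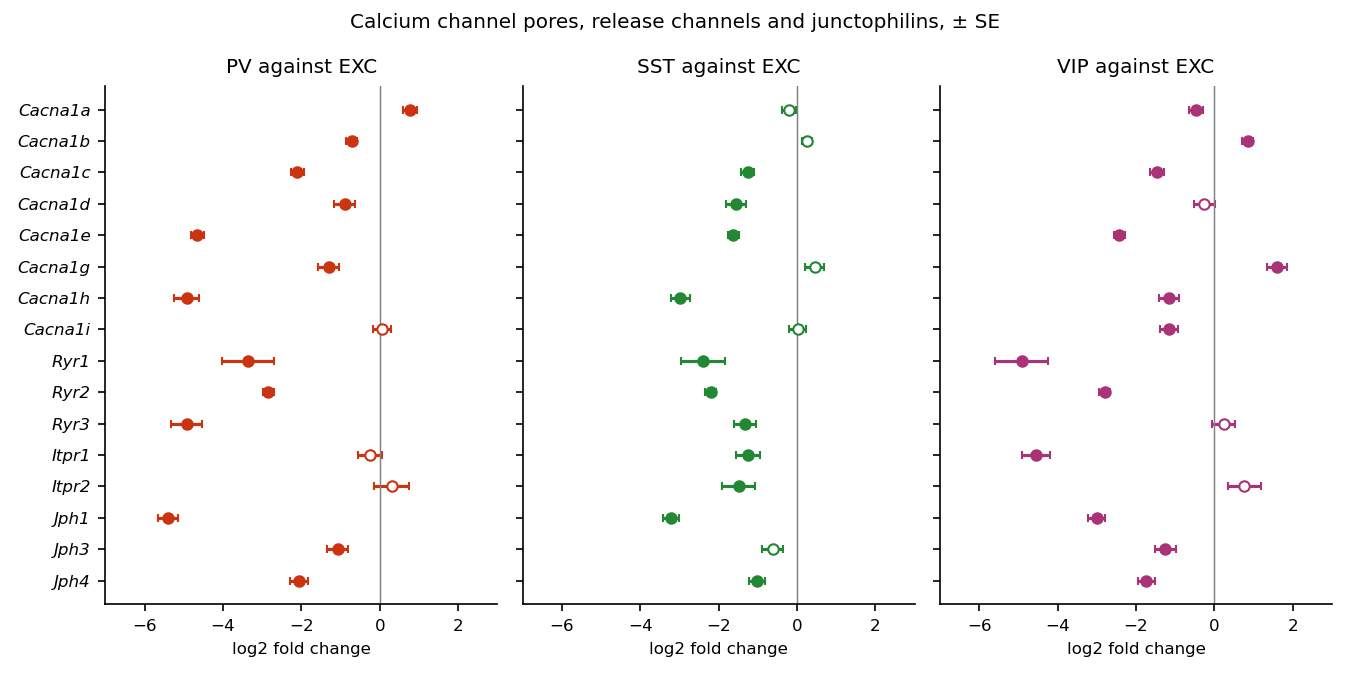
Log2 fold changes ± SE of 16 genes of calcium channel pores, calcium release channels and junctophilins in PV, SST and VIP, each against EXC, from edgeR's quasi-likelihood fit; filled points had an adjusted p under 0.05. Most points lie left of 0, with Cacna1a to the right in PV and Cacna1b and Cacna1g to the right in VIP.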

How the data were processed

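Bulk RNA-seq tables of 24 libraries of sorted cortical neurons, 6 each of EXC, PV, SST and VIP, were analysed. The deposited count column gives, per the file headers, reads whose only alignment lies in a gene model. The RPKM column beside it was computed by the authors and is adjusted by a size factor. Per the submitters' processing notes, reads were aligned with GSNAP to GRCm38. For the versions, counting program, annotation and strand setting: not given in the sources used here. NCBI Gene numbers were given symbols and coordinates from RefSeq (31049 of 36528 matched); the unmatched ones stayed in the tests and took between 0.862% and 3.00% of each library's reads. The ratio of count to RPKM was constant within a library after a factor per gene, and no library was a copy of another (lowest chi-square per degree of freedom 5.58 over 60 pairs).

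Counts were filtered with filterByExpr, scaled by TMM and fitted with terms for subtype and sex over all 24 libraries in edgeR 4.0.16 (R 4.3.3). A gene was called where its p, adjusted by Benjamini-Hochberg over the 14890 genes tested, was under 0.05. The SE is the log2 fold change divided by the square root of F. The fit was tested on simulated counts. Log2 CPM used a prior count of 2. Alternatives were DESeq2 1.42.0, its size factors, other filters, no mitochondrially encoded genes, the pool as a covariate, no sex term, single pairs or pools, and libraries left out. All 8 channel genes are named; from related lists up to 4 called members by size of change and up to 2 others per pair are eligible, and for each channel gene the 3 closest genes with at least 10 CPM in the highest subtype. The genes, the lists and the tests were chosen with earlier results of these data known. The labels give no replicate numbers, so replicates are numbered in order of deposition. Depth set a counting error on weak genes: an interval of 95% and a floor of 3 counts cover counting error only. The promoter of Kcnn2 is not analysed here.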

Additional observations from a re-analysis of the deposited data

Results flagged for a closer look

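Of 32 groups of 6 libraries (8 genes in 4 subtypes), 4 had a library that stood apart from the other 5 by a gap to its nearest neighbour that was large beside the group's range (Dixon's test at the 95% level). Chance gives about 1 such group in 20 where values are normally distributed, a rate that does not hold for groups near 0 reads. Kcnmb2 in EXC replicate 3 stood at 5.71 CPM from 27 reads, while the next EXC library stood at 1.04 and the lowest at 0.504. This library is the only EXC library in POOL7099. Lrrc38 in EXC replicate 4 stood at 0.391 CPM, from 3 reads, against 0 in the other 5 EXC libraries. With 5 libraries at 0, any reads in the remaining library give this flag. Lrrc55 in VIP replicate 5 stood at 6.44 CPM from 35 reads, above 3.65 in the next VIP library. Kcnn3 in VIP replicate 5 stood at 4.97 CPM from 27 reads, below 5.46 in the next library and 5.66 in the highest, a narrow range. What sets these libraries apart was not tested.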

How the results depend on the processing

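Log2 fold changes of the channel genes were recomputed for the pairs of subtypes and for female against male. Of 1905 such values, 1808 kept their direction and their side of the threshold, and 44 changed sign. With the sign kept, 35 were no longer called and 18 became called. Some that changed sign also changed call, such as Lrrc55 in SST against EXC and Kcnmb2 in PV against VIP with the pool as a covariate. The cause was not tested for any of them. No paired analysis was possible because the labels give no replicate numbers. The number of genes called for VIP against EXC fell from 5821 to 3714 with the pool as a covariate and to 1150 within POOL7099, where EXC has 1 library. For PV against VIP it fell from 7242 to 2341 with the pool as a covariate. For the subtype-by-sex terms it went from 0 to 1 in DESeq2 and to 88 with no filter on low counts. Leaving out 1 library at a time, the counts ran from 6208 to 7061 for PV against EXC, 5047 to 5947 for SST against EXC, 5102 to 7291 for VIP against EXC, 3400 to 4748 for PV against SST, 6447 to 7896 for PV against VIP, 3550 to 5484 for SST against VIP, 6 to 7 for female against male and stayed at 0 for the subtype-by-sex terms.

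With the pool as a covariate, 5 log2 fold changes changed sign: Lrrc55 in SST against EXC to 0.60, Kcnn1 in VIP against EXC to -0.50, Kcnmb2 in PV against VIP to 2.92, Lrrc38 in PV against VIP to -0.49 and Kcnmb2 in female against male to 0.0046. For Lrrc38 this fit rests on an EXC library with 0 reads and carries no information between PV and VIP. In the same fit Kcnmb2 became called for PV against SST at 4.03. Kcnmb4 in SST against EXC, which is near 0, changed sign to 0.039 with no filter, to 0.010 without EXC replicate 3 and SST replicate 5, and to 0.25 without EXC replicates 2 and 6. For female against male, Kcnma1 changed sign to -0.0079 in DESeq2, -0.0083 with its size factors and -0.00027 with at least 5 CPM in at least 6 libraries, and Lrrc55 to 0.012 with no filter and 0.020 without EXC replicates 2 and 6. With 1 library left out, values ran from -0.15 to 0.13 for Kcnmb4 in SST against EXC, -0.048 to 0.41 for Kcnn1 in PV against VIP, and for female against male from -0.051 to 0.076 for Kcnma1, -0.12 to 0.13 for Lrrc55, -0.074 to 0.25 for Kcnn1 and -0.14 to 0.012 for Kcnn2. DESeq2 size factors moved the median of all genes to at most 0.15 from 0, and the pool as a covariate to -0.26 for PV against SST. With no filter on low counts that median was -0.30 for PV against VIP. Depth limits Kcnn1 in all subtypes, and Kcnmb2 and Lrrc38 in EXC.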
